A study of Caenorhabditis elegans with 2 samples.

Results

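MicroRNA genes are described here by the HMBX-1 ChIP-seq regions that lie at them. All 261 genes of biotype miRNA on the 6 nuclear chromosomes of the Ensembl WBcel235 gene models were taken, out of 46890 nuclear genes of every kind. Each was given the region of highest deposited signal whose summit, the position of highest enrichment, lay within 250 bp of the annotated gene, and neighbours that took the same summit were grouped. Distance was measured to either end of the gene and counted as 0 inside it. Membership follows from the annotation alone, although this class of genes was taken up with earlier results of these data known. The annotated gene is in nearly every case the hairpin precursor, with a median length of 95 bp, and not the longer primary transcript. An exception is let-7, whose annotated gene spans 1732 bp.

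The study profiled the genomic binding of HMBX-1, a worm homeobox protein related to human HMBOX1 (HOT1), by chromatin immunoprecipitation and sequencing in Caenorhabditis elegans. Both samples were mixed-sex early embryos of strain OP656, genotype unc-119 (tm4063) III; wgIs656, which carries HMBX-1 with a C-terminal GFP-FLAG tag, taken 45 min after synchronization by egg bleaching. They are biological replicates 1 and 2 of a single group, so there is no contrast between conditions, and embryos without the tag and mock precipitations were not analysed here. The sample description gives an anti-GFP antibody, while another field gives hmbx-1 as the antibody. The embryos were used whole, so regions from different cell types are summed, and the region lists hold no expression by which the stage could be checked. The 4 lists used gave 416 thresholded nuclear regions, 29978 pooled relaxed regions, and 25383 and 22887 relaxed regions in replicates 1 and 2. Relaxed lists hold background as well as peaks. The thresholded list is the subset kept by the authors' reproducibility step. The signal is the authors' own value for each region and is not a read count. It is scaled differently in each replicate and in the pool, so signals are compared only within a list. Both replicates were called against the same control, and the read depth behind a region is unknown.

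A microRNA is transcribed by RNA polymerase II as a longer primary transcript, cut to a hairpin by Drosha with its partner Pasha, and cut by Dicer to a short RNA that an Argonaute protein carries to target messages. Target choice rests mainly on the seed, the bases near the 5′ end of the mature RNA, and genes that share a seed form a family. In C. elegans most microRNA genes can be deleted alone with little visible effect. Known exceptions are lin-4, let-7 and lsy-6. Of whole families, those of mir-35 and mir-51 are essential, since worms that lack all members of either family die as embryos or young larvae.

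The mature sequences of the genes with the strongest regions are shown first, because most of them fall into a few seed families. The sequences are from the RefSeq annotation of the same assembly (WBcel235), written 5′ to 3′ with the seed, bases 2 to 8, in capitals. RefSeq gives at least 1 mature arm for 260 of the 261 genes. The mir-51 family follows.
mir-51: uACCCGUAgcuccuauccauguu
mir-52: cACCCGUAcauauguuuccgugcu
mir-53: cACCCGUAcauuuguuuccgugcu
mir-54: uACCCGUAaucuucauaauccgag
mir-55: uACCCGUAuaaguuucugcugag
mir-56: uACCCGUAauguuuccgcugag
All 6 members share the seed ACCCGUA, which is read from the 5′ arm of the hairpin in mir-51, mir-52 and mir-53 and from the 3′ arm in mir-54, mir-55 and mir-56. The 4 clustered members of the mir-35 family at which a thresholded region was found carry another seed.
mir-35: uCACCGGGuggaaacuagcagu
mir-36: uCACCGGGugaaaauucgcaug
mir-37: uCACCGGGugaacacuugcagu
mir-38: uCACCGGGagaaaaacuggagu
The seed CACCGGG is shared by 8 genes, mir-35 to mir-42. The remaining loci with a thresholded region are mir-58a, the worm relative of the fly microRNA bantam, and mir-5549, and mir-80 is shown as the relative of mir-58a with the next strongest region.
mir-58a: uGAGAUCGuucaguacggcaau
mir-80: uGAGAUCAuuaguugaaagccga
mir-5549 5′ arm: cUUGUGAAauuaacgugagu
mir-5549 3′ arm: uCAUGUUGguuuuuuguuggu
By these annotated ends the seed of mir-58a, GAGAUCG, was found in no other gene, and the seed of mir-80, GAGAUCA, was also found in mir-58b, mir-58c, mir-81, mir-82 and mir-2209a.

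The DNA around the summits is shown for the 5 loci of the mir-51, mir-35 and mir-58a groups, because the summits sit differently on the hairpins. Each is a window of 201 bp on ce11 with the summit at base 101, read on the strand of the microRNA, with the bases of annotated microRNA hairpins in capitals.
mir-52, chrIV:14033970-14034170, plus strand: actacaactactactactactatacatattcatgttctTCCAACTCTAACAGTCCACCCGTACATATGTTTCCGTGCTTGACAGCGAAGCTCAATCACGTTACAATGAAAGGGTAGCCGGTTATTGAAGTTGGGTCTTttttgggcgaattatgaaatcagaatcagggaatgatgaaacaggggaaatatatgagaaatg
mir-51, chrIV:11026083-11026283, minus strand: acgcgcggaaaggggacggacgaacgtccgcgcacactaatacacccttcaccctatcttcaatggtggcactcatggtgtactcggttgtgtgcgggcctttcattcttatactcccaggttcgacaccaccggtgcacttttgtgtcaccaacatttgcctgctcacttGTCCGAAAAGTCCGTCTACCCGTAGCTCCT
mir-36 and mir-37, chrII:11537709-11537909, plus strand: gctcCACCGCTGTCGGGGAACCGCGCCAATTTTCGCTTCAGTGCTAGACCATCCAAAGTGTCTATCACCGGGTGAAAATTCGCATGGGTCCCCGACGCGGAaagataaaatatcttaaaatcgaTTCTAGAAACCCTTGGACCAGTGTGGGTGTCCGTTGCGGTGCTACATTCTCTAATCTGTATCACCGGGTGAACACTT
mir-54, chrX:13144942-13145142, minus strand: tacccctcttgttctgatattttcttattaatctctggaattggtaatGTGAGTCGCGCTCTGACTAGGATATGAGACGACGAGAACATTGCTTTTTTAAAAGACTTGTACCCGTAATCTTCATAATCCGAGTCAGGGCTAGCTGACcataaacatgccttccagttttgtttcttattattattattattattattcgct
mir-58a, chrIV:3233086-3233286, plus strand: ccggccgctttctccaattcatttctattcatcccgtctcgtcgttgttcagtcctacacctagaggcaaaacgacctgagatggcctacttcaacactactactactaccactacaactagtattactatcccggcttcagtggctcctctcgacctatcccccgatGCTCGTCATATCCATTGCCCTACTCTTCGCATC
The whole mir-52 hairpin, 100 bases, lies within its window, and the 99 bases of the mir-54 hairpin lie within theirs. The mir-51 and mir-58a windows hold only the first 30 and 33 bases of the hairpin, since their summits lie upstream of it. The mir-36 and mir-37 window holds 174 hairpin bases of both genes, with the summit on the last base of mir-36.

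A thresholded region lay at few microRNA genes, but among them were some of the strongest regions in the genome. Of the 261 genes, 11 (4.21%, 95% exact interval 2.12 to 7.42) had a thresholded summit within 250 bp, against 1.54% of all 46890 nuclear genes. Among the 31266 nuclear genes that are neither piRNA nor microRNA genes the share was 2.26%. Protein-coding genes are far longer than hairpins, so their starts are the closer match in size: 0.601% of 19973 protein-coding starts had a thresholded summit within 250 bp, and the same 11 microRNA genes had one within 250 bp of their 5′ end. These 11 genes drew on 6 distinct strongest summits, because 4 genes of the mir-35 cluster shared one and mir-54, mir-55 and mir-55b shared another. With genes that share a summit counted once, the share was 2.34% (6 of 256, interval 0.865 to 5.03). This interval takes in the shares of 1.54% and 2.26% and lies above 0.601%. In those comparison shares, genes with a common summit were not merged.

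In the relaxed lists the shares of microRNA genes stood close to those of genes in general. A pooled relaxed summit lay within 250 bp of 77 microRNA genes (29.5%, interval 24 to 35.4), against 32.7% of all nuclear genes. Within 250 bp of the 5′ end the share was 28% for microRNA genes and 20.1% for protein-coding starts. Regions in both replicates were found at 41 microRNA genes (15.7%, interval 11.5 to 20.7), against 17.1% of all nuclear genes. In 25 further genes only replicate 1 had a region and in 31 only replicate 2, and 156 genes (59.8%) had none in any list. Of the 77 genes with a pooled region, 39 had one in both replicates, 30 in 1 replicate and 8 in neither.

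Where a pooled region was present at a microRNA gene, it tended to stand high in its list. The median percentile of the strongest pooled region, with 100 the strongest, was 80.7 for microRNA genes. It was 97.4 for tRNA, 92.8 for snoRNA, 90.1 for snRNA, 66.9 for protein-coding and 39.7 for piRNA genes. For antisense RNA, lincRNA and ncRNA genes it was 69.7, 66.4 and 64.2, and for pseudogenes 47.9. Taking the maximum over a longer gene raises this value, which works toward higher percentiles for protein-coding genes. Thresholded shares had a similar order. They were 23.4% for tRNA genes (interval 20.1 to 26.9), 14.2% for snoRNA genes (10.7 to 18.3) and 7.75% for snRNA genes (3.78 to 13.8). The interval for microRNA genes overlaps that of snRNA genes and that of genes classed only as ncRNA (2.29%, 1.97 to 2.65), and it lies below those of tRNA and snoRNA genes. No summit lay at the 20 rRNA genes; 3 counts of 20 would be 15%, and the exact interval reaches 16.8%.

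**Figure D1:**
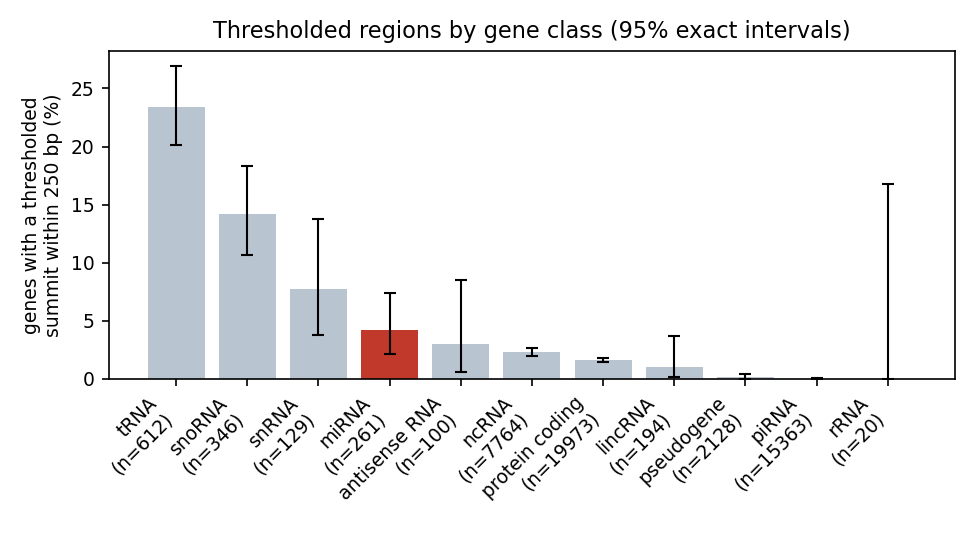
Share of genes of each class (vertical axis, percent) with the summit of a thresholded region within 250 bp; bars start at 0, lines are 95% exact intervals and n is the number of nuclear genes. The microRNA bar, in red, stands at 4.21%, below the tRNA and snoRNA bars at 23.4% and 14.2% and above the protein-coding bar at 1.59%.

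The strongest region at any microRNA gene was at mir-52, a member of the mir-51 family that is abundant in embryos. Its signal was 542.7 in the pooled and thresholded lists, 375.1 in replicate 1 and 178.6 in replicate 2. It stood at rank 4 of 416 thresholded nuclear regions, at rank 4 in replicate 1 and at rank 8 in replicate 2, so both replicates placed it near the top. The highest signals in these lists were 688.3 (pooled), 500.6 (replicate 1) and 265.9 (replicate 2). The region covered chrIV:14033746-14034376 (631 bp), and its summit at position 14034070 lay inside the hairpin (14034008 to 14034107, plus strand), 62 bp from its 5′ end. The replicate summits lay at +73 and −7 bp. A further thresholded summit lay at +264 bp, past the 3′ end of the hairpin, with a signal of 218.5 and rank 87; the matching replicate values were 160.9 and 85.4. It belongs to the same stretch of enrichment and was not counted as a separate locus. In every list the smallest distance between neighbouring summits was 199 bp, near the spacing of this pair.

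No protein-coding start lay near mir-52. The nearest one, of Y37A1B.7, was 9710 bp from the summit, and the hairpin lay outside protein-coding genes. An annotated ncRNA gene on the opposite strand, Y37A1B.335 (14033942 to 14034090), overlaps the summit, and 3 ncRNA genes lay within 250 bp of it. How much of the signal belongs to the microRNA and how much to these neighbours cannot be told apart by position.

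The mir-51 locus had the next strongest region. Its signal was 408.9 in the pool, 257.6 in replicate 1 and 153.1 in replicate 2, at ranks 12, 10 and 13. The summit at chromosome IV position 11026183 lay 71 bp upstream of the hairpin (11026013 to 11026112, minus strand), and the replicate summits lay 76 and 116 bp upstream. Both replicates thus had the summit upstream of mir-51. The ncRNA gene F36H1.17 (11026131 to 11026219, minus strand) holds the summit. The nearest protein-coding start, of the heme transporter gene hrg-5, was 3245 bp away.

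The other members of the mir-51 family had weaker regions, and all 6 had a region in both replicates. At mir-53 (chromosome IV, 11027593 to 11027691), close to mir-51, the strongest pooled signal was 84.7 (rank 553), below the lowest thresholded signal of 95.3. Replicates 1 and 2 gave 44.4 (rank 1105) and 43.9 (rank 409). The X-linked members mir-54, mir-55 and mir-56 lie in a row within an intron of F09A5.3, on its opposite strand. A region of signal 103.6 (rank 361), with its summit inside mir-54 at +52 bp, served mir-54, mir-55 and mir-55b, an annotated hairpin on the other strand of mir-55. The replicates differed here: this region stood at rank 204 in replicate 2 (signal 59.5) and only at rank 1226 in replicate 1 (signal 43.3). The mir-56 hairpin lay 255 bp from the thresholded summit, just outside the limit, and had no pooled region. Its replicate signals were 31.2 and 59.5, the second from a summit shared with mir-54, mir-55 and mir-55b.

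In the mir-35 cluster on chromosome II, 7 hairpins follow each other within an intron of Y62F5A.9 and on its opposite strand. The cluster is expressed early in the embryo. A region of signal 185.6 (rank 119) was centred at position 11537809, on the last base of mir-36 (11537713 to 11537809), and took in mir-35, mir-36, mir-37 and mir-38. The replicate signals were 103.6 (rank 131) and 83.8 (rank 103), and their summits lay 35 and 1 bp away, so the position and the rank were close in both. A weaker region with its summit at 11538017 served mir-39 and mir-40, with a signal of 83.3 (rank 576) and 58.5 and 44.2 in the replicates. The last gene of the cluster, mir-41, had no region in any list. The pooled signal was thus 185.6 at mir-35 to mir-38 and 83.3 at mir-39 and mir-40, with no region at mir-41. This order rests on the summits at 11537809 and 11538017 alone. Their spacing is near the smallest in the list, 199 bp, so they may belong to the same stretch of enrichment. A link to transcription was not tested. Also here ncRNA genes share the place: Y62F5A.14 holds the summit and 3 lay within 250 bp. The nearest protein-coding start, that of Y62F5A.9, was 1032 bp from the summit. The eighth family member, mir-42, lies apart with mir-43 and mir-44 on chromosome II, and these 3 genes shared a pooled region of signal 66.0 (rank 1154; 38.9 and 30.4 in the replicates).

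At mir-58a, one of the most abundant worm microRNAs, the summit lay 68 bp upstream of the hairpin (chromosome IV, 3233254 to 3233350, plus strand). The signal was 107.6 (rank 337), and its strongest replicate values within the limit were 52.8 (rank 628) and 64.7 (rank 167). The replicate 1 value came from a summit at +273 bp, downstream of the hairpin, and the replicate 1 summit nearest to the pooled one had a signal of 43.6 at −91 bp. In replicate 2 the strongest summit was at −131 bp. The replicates therefore had their strongest summits on different sides of mir-58a. The hairpin lies within an intron of Y67D8A.2, on the same strand and 10746 bp from its start, and the ncRNA gene Y67D8A.6 overlaps it. Of its relatives, mir-80 had a pooled region of 71.9 (rank 860; 52.6 and 28.5 in the replicates), mir-81 only a replicate 2 region of 13.3, and mir-82 none. Of the other genes with the mir-80 seed, mir-2209a had a pooled region of 31.3 (20.1 and 16.4 in the replicates), and mir-58b and mir-58c had no region in any list.

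The last locus, mir-5549 on chromosome III (6971976 to 6972085, minus strand), differs from the others in its surroundings. Its region had a signal of 99.5 (rank 376), with 56.7 (rank 498) and 46.0 (rank 374) in the replicates, and the summit lay inside the hairpin. The place is also the gap between divergent starts, 212 bp from the start of rfc-4, a subunit of the replication clamp loader, and 329 bp from the start of eef-1A.1, a translation elongation factor. No other non-coding gene was within 250 bp. A further pooled summit, with a signal of 80.6, lay at 6972278, close to the rfc-4 start at 6972253. The matching replicate values were 53.0 and 27.5. Binding at this locus can be assigned by position to the promoters as well as to the microRNA. It was 1 of 6 thresholded loci within 500 bp of a protein-coding start, against 40.1% of all 416 thresholded regions.

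**Figure D2:**
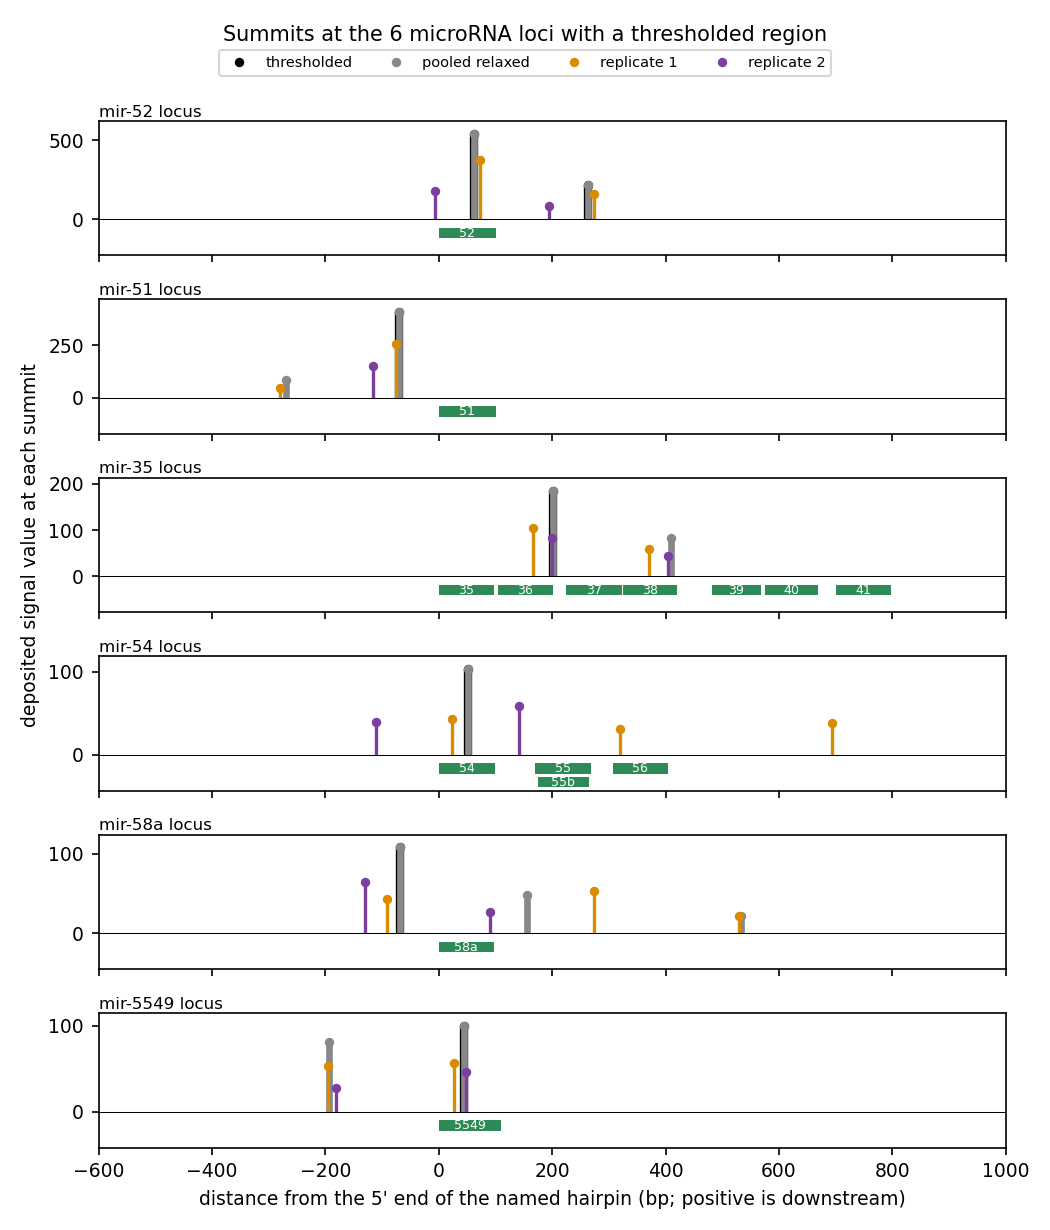
Summits at the 6 microRNA loci with a thresholded region: horizontal axis, distance from the 5′ end of the named hairpin (bp, positive downstream); vertical axis, deposited signal, with a separate scale in each panel and the pooled and replicate lists each on their own signal scale. Green bars are hairpins, those on the opposite strand in a lower row. The strongest summit lies inside mir-52 at +62 bp and upstream of mir-51 and mir-58a at −71 and −68 bp; in the mir-35 panel no summit lies at mir-41.

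The 11 genes lay well inside the distance limit, the farthest being mir-38 at 124 bp and mir-55b at 123 bp from a summit. Just outside it were mir-56 at 255 bp, mir-39 at 280 bp and mir-40 at 375 bp, with mir-41 at 499 bp. No thresholded summit was between 124 and 255 bp as the nearest to any microRNA gene.

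By family, the mir-35 and mir-51 families held 8 of the 11 genes. Of their 14 members, 8 had a thresholded region (57.1%), 12 a pooled region (85.7%) and 13 a region in both replicates (92.9%). Of the other 247 microRNA genes, 3 had a thresholded region (1.21%), 65 a pooled region (26.3%) and 28 a region in both replicates (11.3%). The 3 were mir-58a, mir-5549 and mir-55b, which has its region through the summit it shares with mir-54 and mir-55. The families were set apart with earlier results of these data known, so the contrast is a description. These shares stand beside the all-gene values of 1.54%, 32.7% and 17.1%. Members of a cluster share summits, so the 14 genes are not 14 separate observations: the 8 thresholded ones rest on 4 summits.

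The other listed families had no thresholded region. The let-7 family takes part in the timing of larval development. Of its 4 listed members, let-7 and mir-241 had pooled signals of 25.8 and 23.7, close to the lowest pooled signal of 21.7, without a region in either replicate, and mir-48 and mir-84 had none. A further gene with the let-7 seed, mir-795, also had no region in any list. The founding heterochronic gene lin-4 had a region only in replicate 2 (20.4), and its relative mir-237 likewise (13.0). In the cluster of mir-64, mir-65, mir-66 and mir-229, 3 of 4 genes shared a pooled region of 34.3. In the list of mir-42 to mir-45, mir-61 and mir-247, 4 of 6 genes had a pooled region, from 40.5 at mir-45 to 66.0. Of 25 other conserved microRNA genes with roles in nerve, muscle and other tissues, none had a thresholded region. A pooled region was found at 14 of them (56%) and a region in both replicates at 5. Among all microRNA genes the pooled and both-replicate shares were 29.5% and 15.7%, and among all nuclear genes 32.7% and 17.1%. The strongest of the 25 were mir-2 with 71.9, mir-90 with 67.6, mir-79 with 62.7 and mir-87 with 62.1. The last was present in replicate 1 (59.1) and not in replicate 2. The neuronal mir-124 had 48.0 in the pool and 36.4 in replicate 1, with no replicate 2 region. The muscle microRNA mir-1 had a region only in replicate 1 (25.9), and lsy-6, which sets the left-right difference of a pair of taste neurons, had none.

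**Figure D3:**
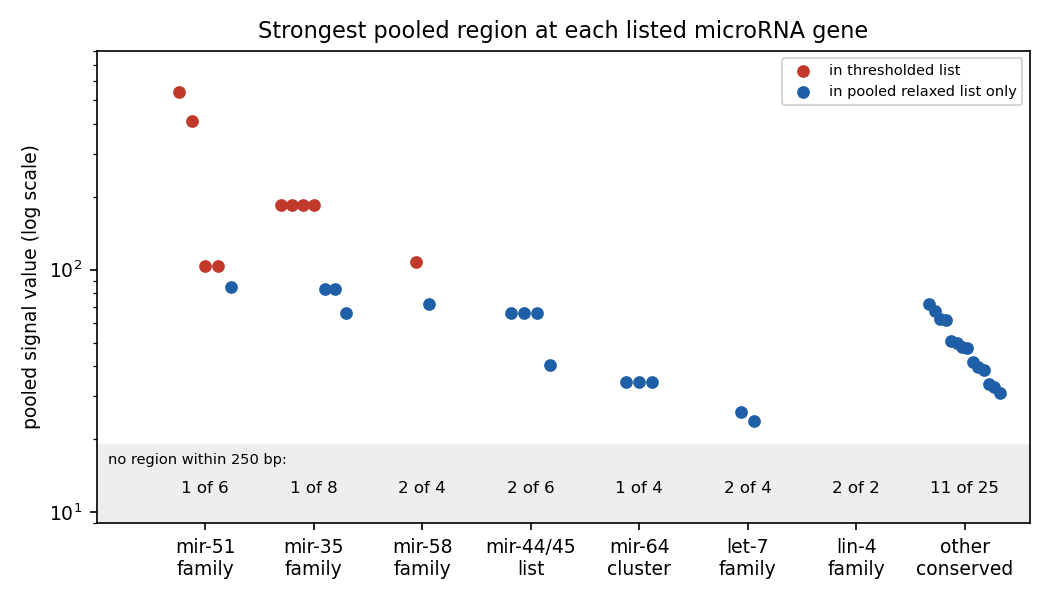
Strongest pooled signal (vertical axis, log scale) within 250 bp of each listed microRNA gene, by family; each point is a gene, red where the region is thresholded, and the grey strip counts genes without a pooled region. The mir-51 family spans 84.7 to 542.7 and the mir-35 family 66.0 to 185.6, while the let-7 points stand at 25.8 and 23.7. mir-42 is drawn in both the mir-35 and the mir-44/45 groups.

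Outside these families the signals fell off without a break. The genes named next are those with the highest pooled signal that had a region in both replicates. They include mir-4920 with 61.1 (41.3 and 23.4 in replicates 1 and 2), mir-4929 with 60.0 (51.8 and 20.6) and mir-244 with 57.2 (41.0 and 17.3). After them came mir-8187 with 54.5 (30.3 and 32.3), mir-73 with 50.9 (20.0 and 33.8), mir-4937 with 48.0 (25.2 and 21.1) and mir-72 with 47.5 (27.6 and 26.8). The last were mir-8209 with 46.4 (29.4 and 18.4) and mir-4934 with 46.2 (33.7 and 14.1). The replicates ranked several of these differently. The strongest region at mir-73 stood at rank 18239 of 25383 in replicate 1 and at rank 926 of 22887 in replicate 2. These were different places, since the summits lay at −160 bp in replicate 1 and at +149 bp in replicate 2. The second was shared with mir-74. The median strongest pooled signal over the 77 genes was 42.2, against a median of 30.7 over all pooled regions.

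By count, pooled summits lay more often upstream of the hairpin than downstream. Fewest lay inside it, but the hairpin is also the smallest part of the searched sequence. Of the 65 distinct pooled summits, 30 (46.2%) lay upstream of the nearest microRNA, 16 (24.6%) inside it and 19 (29.2%) downstream. Upstream flank, hairpin and downstream flank make up 41.9%, 16.2% and 41.9% of the searched sequence. Set against these parts, the share of summits was higher inside the hairpin, slightly higher upstream and lower downstream. Whether these differences exceed chance was not tested. Of the 6 thresholded summits, 4 lay inside a hairpin and 2 upstream. Protein-coding starts were within 500 bp of 10 of the 65 pooled summits (15.4%), against 24.3% of all pooled regions. Genes for tRNA, snoRNA, snRNA or rRNA were within 250 bp of 2 of the 65 and of none of the 6, so the thresholded microRNA loci are not neighbours of the small RNA genes at which regions were most frequent.

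Other annotated non-coding genes were common beside the microRNA genes with regions. An ncRNA, lincRNA or antisense gene lay within 250 bp of 64 microRNA genes (24.5%). Of these 64, 8 had a thresholded region (12.5%) and 32 a pooled one (50%). Of the 197 without such a neighbour, 3 (1.52%) and 45 (22.8%) did. The 8 include mir-35 to mir-38, which share a summit, so these genes are not separate observations. Over all nuclear regions, 39.2% of thresholded and 7.06% of pooled summits had such a gene within 250 bp. Among the distinct strongest thresholded summits at microRNA genes, only that of mir-5549 had none. A choice made after seeing the data was to leave out microRNA genes whose thresholded summit lay within 250 bp of another non-coding gene. Then 1 of the 251 genes left had a thresholded region (0.398%), namely mir-5549. This step removes only genes that have a thresholded region, so it can only lower the share. The part of these neighbours in the result was not tested.

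Counts were also taken by genomic setting and by chromosome. Of 33 microRNA genes inside a protein-coding gene on its opposite strand, 6 had a thresholded region (18.2%); these are the mir-35 and mir-54 clusters and so 2 summits. On the same strand 2 of 76 did (2.63%), and outside protein-coding genes 3 of 152 (1.97%). For pooled regions the shares were 33.3%, 34.2% and 26.3%. By chromosome, a pooled region lay at 13 of 27 microRNA genes on III (48.1%) and 20 of 49 on II (40.8%), where the shares of all genes were 52.6% and 41%. On V it was 3 of 28 (10.7%) against 33.2% of all genes, and on X, the chromosome with the most microRNA genes, 18 of 74 (24.3%) against 38.3%. The shares were 9 of 33 (27.3%) against 50.4% on I and 14 of 50 (28%) against 20.9% on IV, where most piRNA genes lie. These all-gene shares are not matched in size to hairpins. Protein-coding genes, with a median length of 2027 bp, had a pooled region in 50.1% of cases. The part of gene length in the differences by chromosome was not tested.

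The sequence around the 6 thresholded summits held few of the words searched. The words were GTTCGA, part of the internal promoter of tRNA genes, the telomere word TTAGGC, the homeodomain-type word TAGTTA and the word TTGCAA, chosen with earlier results of these data known, each on both strands of the 201 bp window. GTTCGA was present at mir-51 and at none of the other 5, while 33.2% of all 416 thresholded windows and 6.52% of 29307 sub-threshold windows held it. At mir-51 it begins at base 121 of the sequence shown above, inside F36H1.17. The other words were in none of the 6 windows. Over all thresholded and all sub-threshold windows, TTAGGC was in 7.45% and 6.58%, the word TAGTTA in 3.61% and 8.16%, and the word TTGCAA in 19.7% and 10.9%, so their absence among 6 windows says little. The GC content of the 6 windows ran from 34.3% at mir-5549 and 36.3% at mir-54 over 39.3% at mir-52 to 49.8% at mir-58a, 50.2% at mir-36 and 54.2% at mir-51, against medians of 44.8% over all thresholded and 33.8% over all sub-threshold windows.

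Both replicates gave their highest microRNA signals at mir-52, mir-51 and the mir-35 cluster. Over the 41 microRNA genes with a region in both, which form 32 distinct pairs of regions, the log2 signals had a Pearson correlation of 0.79 and a Spearman correlation of 0.56 across genes. Without the 11 genes that have a thresholded region, the 26 remaining pairs gave 0.27 and 0.26. A lower value is built into that step, since it removes regions kept for their reproducibility and narrows the range of signal. Both replicates share 1 control and the genes share clusters, so these values are descriptions. The median distance between the replicates' summits was 116 bp, and 12 of the 32 pairs lay within 100 bp. Among the 416 strongest regions of replicate 1 taken alone were those of 6 microRNA genes, mir-51, mir-52 and mir-35 to mir-38. Among those of replicate 2 alone were the regions of 15, which are all 11 thresholded genes with mir-39, mir-40, mir-53 and mir-56. The regions at mir-54, mir-55, mir-55b, mir-58a and mir-5549 were therefore within this range in replicate 2 and outside it in replicate 1.

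**Figure D4:**
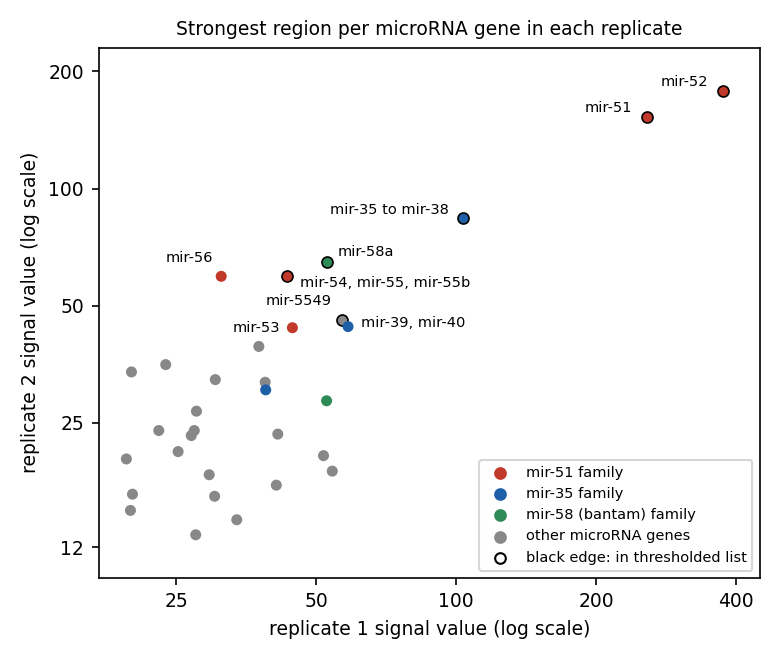
Strongest signal within 250 bp in replicate 1 (horizontal axis, log scale) against replicate 2 (vertical axis, log scale) for microRNA genes with a region in both, each distinct pair drawn once. mir-52, mir-51 and the mir-35 cluster stand apart at the upper right, and the grey points below about 50 on both axes show no clear order.

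Genes that make and use microRNAs were examined at their starts. Of 31 biogenesis and effector genes, 1 had a thresholded summit within 500 bp of its start, against 1.04% of all protein-coding starts, and 15 had a pooled one (48.4%), against 32.2%. The 1 gene was vig-1, whose product is a component of the silencing complex. Its signal was 128.9 (rank 229), with 63.8 and 65.1 in the replicates, and the summit was 415 bp upstream of the start. The next were the Argonaute gene alg-2 with 59.4 (36.3 and 23.9), the exonuclease gene xrn-2 with 59.0 (35.0 and 19.2) and the Pasha gene pash-1 with 56.1 (37.5 and 26.3). Of 16 known microRNA targets, none had a thresholded region (3 counts of 16 would be 18.8%, and the exact interval reaches 20.6%), and 10 had a pooled one (62.5%), 3 of them with regions in both replicates. The strongest were at sup-26, an mRNA target of mir-35, with 59.1 (31.1 and 34.0) and at die-1 with 41.8 (30.8 in replicate 1 only). Next were ced-3 with 38.3 (21.2 and 12.8) and hbl-1, a let-7 family target, with 37.3 (27.0 and 17.3). The replicate 2 value of ced-3 is close to the lowest of that list, 12.7. Over all protein-coding starts the share with regions in both replicates was not counted.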

How the data were processed

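ChIP-seq region lists for assembly ce11 were used, 1 per replicate, 1 for the pool and 1 thresholded. The signal of each region is the authors' deposited value, and the deposited −log10 q value (2.02 to 2.24 in the thresholded list at nuclear regions) was used only for description. Per the file headers and notes, relaxed lists were called against a control and thresholded by the irreproducible discovery rate. Not given in the sources used here are the aligner, the caller, their versions, the threshold and how reads with several matches were handled. The ce10 lists were not used and no coordinate was converted.

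Genes came from Ensembl release 115, and mature arms and windows from RefSeq (WBcel235). Summits were joined to genes with Python 3.11.15 and numpy 2.4.6. Shares carry exact Clopper-Pearson 95% intervals (scipy 1.17.1), which cover the counting of genes only; neighbouring genes that share a summit make them too narrow. No p-values were computed, as there is 1 group of 2 samples. The scoring was tested on simulated data. The microRNA genes, families, words and lists were chosen with earlier results of these data known.

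The genes named are those with a thresholded region, then those with the highest pooled signal and a region in both replicates up to 30, and up to 4 per list; others were named after their values were seen. Alternatives covered the distance limit, overlap of the whole region, shared summits, nearby non-coding genes, the RefSeq gene set, the upper part of the thresholded list and each replicate alone.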

Additional observations from a re-analysis of the deposited data

How the results depend on the processing

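The share of microRNA genes with a thresholded region, 4.21% within 250 bp, was 1.53% for summits inside the gene (4 genes), 2.68% within 100 bp (7) and 6.9% within 1000 bp (18). It was 2.34% with shared summits counted once, 2.3% in the stronger part of the list (signal at or above the median) and 0.398% without genes whose summit lay within 250 bp of another non-coding gene, an alternative chosen after seeing the data. With each replicate's 416 strongest regions alone it was 2.3% to 5.75%; without replicate 2 the count fell from 11 to 6, and without replicate 1 it was 15. The pooled share, 29.5%, was 8.05%, 17.2%, 42.1% and 58.6% at limits of 0, 100, 500 and 1000 bp, and 25.3% to 27.6% in single replicates. The share with a region in both replicates, 15.7%, was 2.3%, 8.81%, 26.4% and 38.7% at the same limits. The mir-52 signal was 178.6 to 375.1 in single replicates, on their own scales, against 542.7 in the pool. The median percentile, 80.7, was 75.5 to 79.3 in single replicates. Widening the limit raises every share by construction. Taking only the stronger part of the list or counting shared summits once can only lower the thresholded share. The same holds for leaving out genes whose thresholded summit lay near another non-coding gene. The cause of the other changes was not tested. Overlap of the whole region and leaving out genes near small structural RNA genes moved none of the 3 shares beyond its interval; nor did distance to the 5′ end (also chosen after seeing the data) for the thresholded and pooled shares, or the RefSeq gene set for the thresholded share. Depth limits all counts to an unknown extent, and a gene without a region may still be bound. No paired analysis was possible because both replicates belong to a single group.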

Other observations

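Numbers in gene names broadly follow the order in which microRNAs were described, and regions were uneven along them. Of the 61 genes named mir- with a number under 100, let-7, lin-4 or lsy-6, 10 had a thresholded region (16.4%), 34 a pooled region (55.7%) and 26 a region in both replicates (42.6%). Of the other 200 genes, 1 had a thresholded region (0.5%), 43 a pooled region (21.5%) and 15 a region in both replicates (7.5%). The shares over all nuclear genes were 1.54%, 32.7% and 17.1%. This split was made after the values were seen and was not tested, and the lower-numbered group holds the mir-35 and mir-51 families. It also holds mir-55b, placed by its number, which shares its summit with mir-54 and mir-55. Members of a cluster share summits, so the genes with a region are not separate observations.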
